A study of Mus musculus with 6 samples.

Results

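Cytochrome P450 genes encode haem enzymes that insert an oxygen atom into fats, steroids, vitamins and foreign compounds. The array annotation names 91 such genes of the mouse, on 125 probes, by a symbol made of Cyp, a family number, a subfamily letter and a member number. Genes whose symbol has another form were not among them, such as Cyp51, an enzyme of cholesterol synthesis, and Cyp3a41a, whose symbol ends in a letter. Of the 91 genes, 43 could be tested, among 22946 tested genes in all.

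The samples were 6 teratomas, growths of mixed tissue derived from mouse embryonic stem cells (mESCs) that were injected subcutaneously into BALB/c Nude mice, which lack T cells. In the miR-124a group, 3 tumours received a miR-124a-3p mimic, which copies a microRNA known for its abundance in neurons. In the control group, 3 tumours received a miRNA negative control. Both groups received the RNA as Atelogen QG complexes (15 µg per 100 µL) into the tumour every 3 days until Day 28, from a tumour volume of at least 100 mm3, about 10 days after inoculation. The groups share the host strain, the carrier and the schedule, and the labels name no genotype or age. The sources used here do not say which cells of a tumour took up the mimic.

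P450 enzymes of families 1 to 3 act mostly on drugs and other foreign compounds and are most abundant in liver, gut and airway epithelium. Families above that mostly have substrates of the body's own, such as arachidonic acid, cholesterol, steroid hormones, bile acids, vitamin D and retinoic acid. The microsomal members draw electrons from cytochrome P450 reductase. In a teratoma, each gene can be expressed by patches of differentiated tissue, and in bulk RNA fewer cells of a type and less RNA per cell cannot be told apart.

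The findings rest on 60-base array probes, so the probes of the genes most discussed are printed here 5′ to 3′ as the array annotation holds them, with their positions in build mm9. The first 3 are neighbours on the plus strand of chromosome 19, the fourth lies on the plus strand of chromosome 17, and all are in lower case because no base is singled out.
Cyp2c65, chr19:39168290-39168349: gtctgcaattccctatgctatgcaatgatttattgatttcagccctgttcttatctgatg
Cyp2c66, chr19:39261183-39261242: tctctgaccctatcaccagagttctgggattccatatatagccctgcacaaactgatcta
Cyp2c55, chr19:39116674-39116733: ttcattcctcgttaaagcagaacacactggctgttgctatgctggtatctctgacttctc
Cyp4f15, chr17:32840088-32840147: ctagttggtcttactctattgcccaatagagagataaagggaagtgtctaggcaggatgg
Exon and UTR boundaries at these positions were not analysed here. The Cyp2c66 probe also lists an accession of Cyp2c65, so signal on it may come from both transcripts.

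Signal is given throughout as log2 of the processed spot intensity minus the 75th percentile of that array, called the log2 relative signal, and it is compared between tumours within a probe only. Each array had 63.4% to 65.9% of 56583 probes well above background, a call of the scanner software, and no spot was saturated. Pairs of arrays correlated at r = 0.970 to 0.992 over probes. The miR-124a arrays were all in slide row 2 and the control arrays in slide row 1, so row and treatment cannot be told apart. Whether the 6 arrays shared 1 slide was not checked.

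The miR-124a mimic went with a change past the threshold in few P450 genes. Cyp2c65, a member of the drug-metabolising 2C subfamily known in mouse for expression in the intestine, fell in miR-124a tumours. Cyp4f15, a fatty acid and leukotriene hydroxylase of the 4F subfamily, rose in them. The remaining 41 tested genes did not pass the adjusted p threshold of 0.05 (limma, Benjamini-Hochberg over all tested genes). Of all tested genes 742 passed, or 3.23%, with 2.75% lower and 0.488% higher, against 1 lower and 1 higher among the 43 P450 genes.

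The family as a whole was centred near 0. The median log2 fold change (miR-124a minus control) over the 43 tested genes was -0.017, against -0.0022 over all tested genes, and 23 values were below 0 and 20 above, where 50.3% of all genes were below 0. The size of the change was under 0.5 on the log2 scale in 34 of the 43. The median size was 0.27, against 0.22 over all tested genes, and the median standard error was 0.19, against 0.14. At an unadjusted p under 0.05, 11 of the 43 passed, where 27.3% of all tested genes did: Cyp2c65, Cyp2c55, Cyp2c70, Cyp2d11, Cyp2d26, Cyp27a1 and Cyp2w1 were lower in miR-124a tumours, and Cyp4f15, Cyp2j9, Cyp4v3 and Cyp2c67 higher. The 2 groups of tumours did not overlap for 10 of the 43 genes, where 35.6% of all tested genes did not overlap. These last 2 shares lie near or below the background and are no result about the family.

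**Figure D1:**
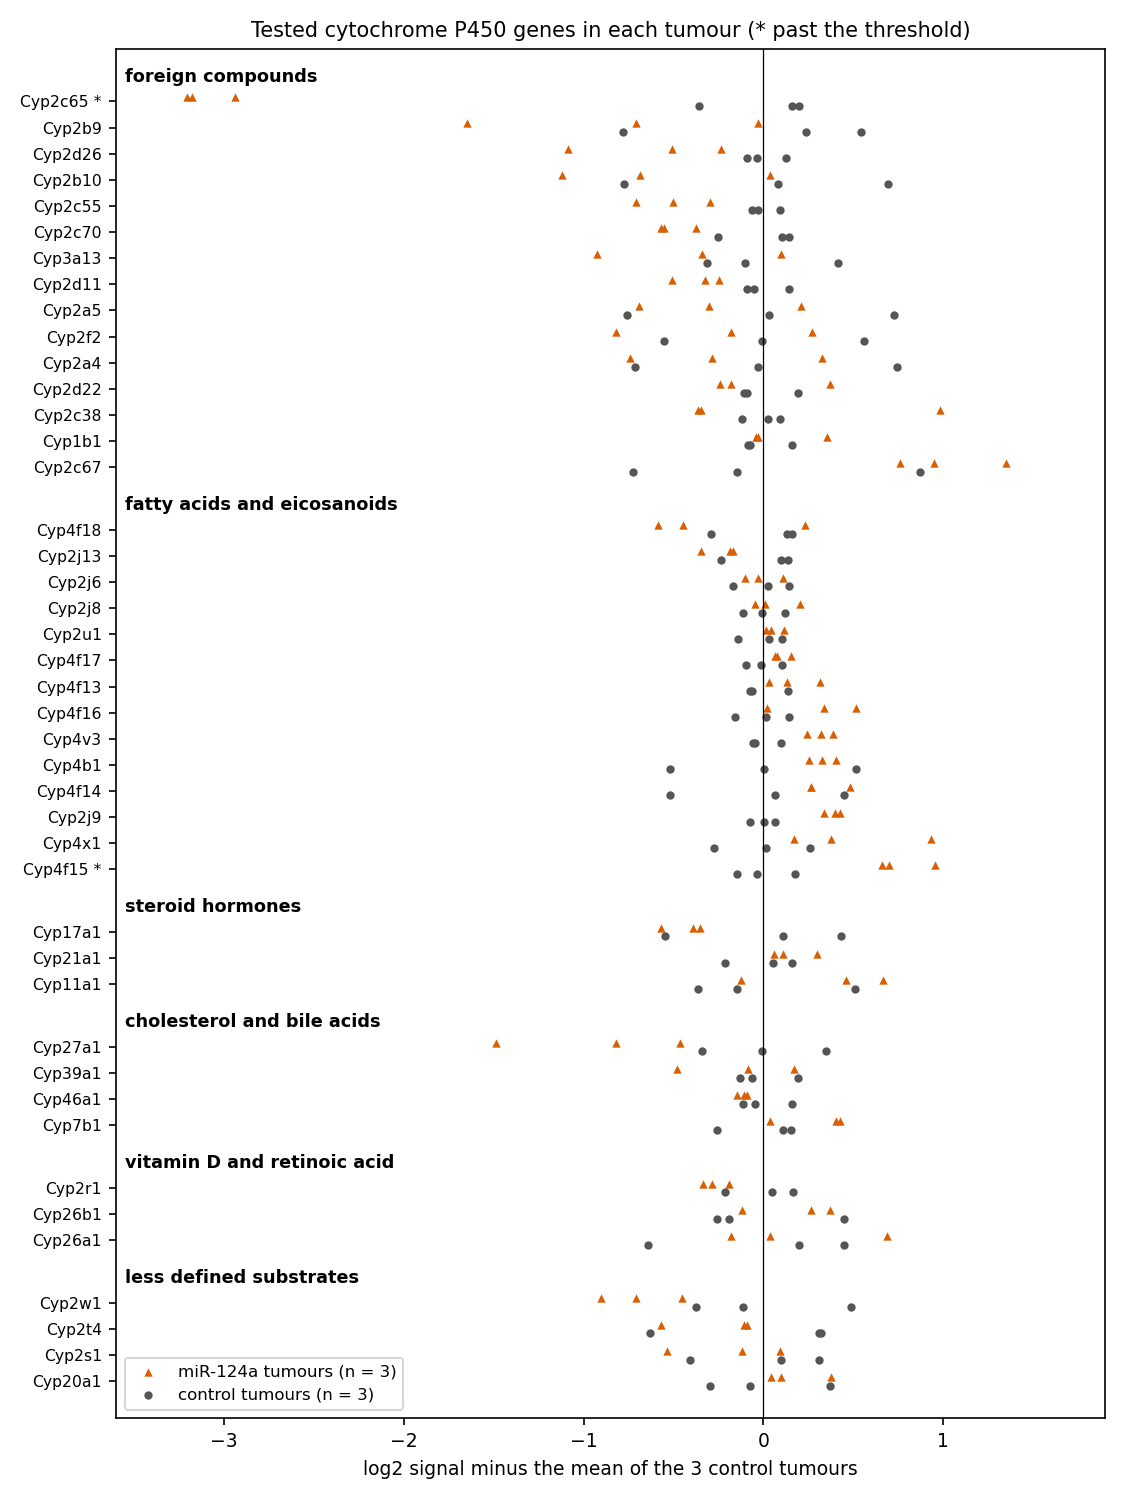
Each row is a tested P450 gene, grouped by role, and each mark is 1 tumour (triangles, 3 miR-124a tumours; circles, 3 control tumours), plotted as log2 signal minus the mean of the control tumours. The Cyp2c65 triangles lie near -3 and the Cyp4f15 triangles between 0.66 and 0.95, apart from the circles of their rows, while most other rows overlap.

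**Figure D2:**
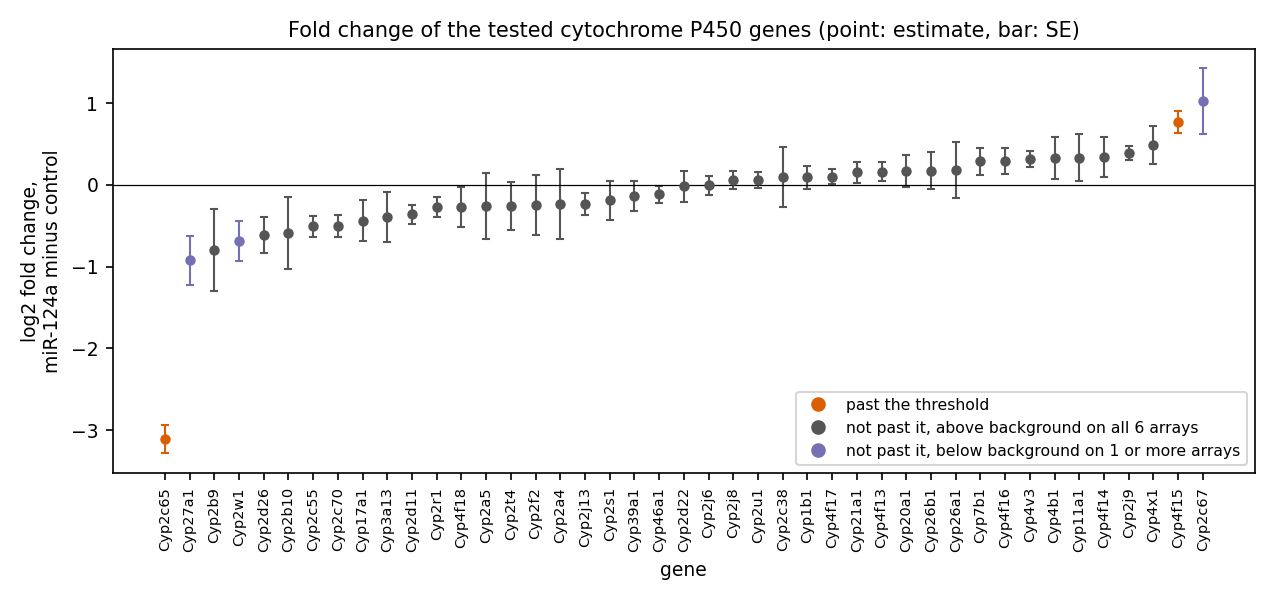
The vertical axis is the log2 fold change, miR-124a minus control, of each of the 43 tested P450 genes in order of size (points), with its standard error (bars). Orange points passed the adjusted threshold, and purple points were below background on at least 1 array and did not pass it. Cyp2c65 stands at -3.11 and Cyp4f15 at 0.77, and the other points run from -0.92 (Cyp27a1) to 1.02 (Cyp2c67).

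Somewhat fewer P450 genes were detected in each miR-124a tumour than in any control tumour, a difference that was not tested. In the miR-124a tumours 44, 44 and 44 of the 91 genes had a probe well above background, and in the control tumours 48, 46 and 50 did. Over all probes of the array the share was 64.1%, 63.4% and 64.9% in miR-124a tumours 1 to 3 and 65.9%, 63.6% and 65.5% in control tumours 1 to 3, ranges that overlap. These are shares of single probes and not of genes, so they are no like-for-like background for the gene counts. The detection limit also differed. The lowest log2 relative signal well above background was -5.32, -5.30 and -5.46 in miR-124a tumours 1 to 3. In control tumours 1 to 3 it was -5.58, -5.44 and -5.58. The part of this limit in the gene counts was not tested. A gene was tested where the same probe of it was above background on all 3 arrays of 1 group or both. Of the 43, 39 were above background on all 6 arrays. The other 4 passed through the group in which they were higher, so their difference is partly built in: Cyp2c65, Cyp27a1 and Cyp2w1 were above background in the control group only, and Cyp2c67 in 3 miR-124a tumours and 1 control tumour. Of the 48 untested genes, 33 were above background on no array, 7 on 1 array, 3 on 2 arrays, 4 on 3 arrays and 1 on 4 arrays. Just outside the limit, 8 untested genes reached 2 of 3 arrays in a group. Cyp2e1 did so in both groups. Cyp2g1 and Cyp4a31 were above background in 1 of 3 miR-124a and 2 of 3 control tumours, and Cyp2d40 and Cyp3a11 in 2 of 3 miR-124a and 1 of 3 control tumours. For Cyp2d40 different probes gave these counts, 1 probe in 2 of 3 miR-124a tumours only and another in 1 of 3 control tumours only. Cyp2c66 and Cyp2a22 were above it in 0 of 3 miR-124a and 2 of 3 control tumours, and Cyp4a29 in 2 of 3 miR-124a and 0 of 3 control tumours.

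**Figure D3:**
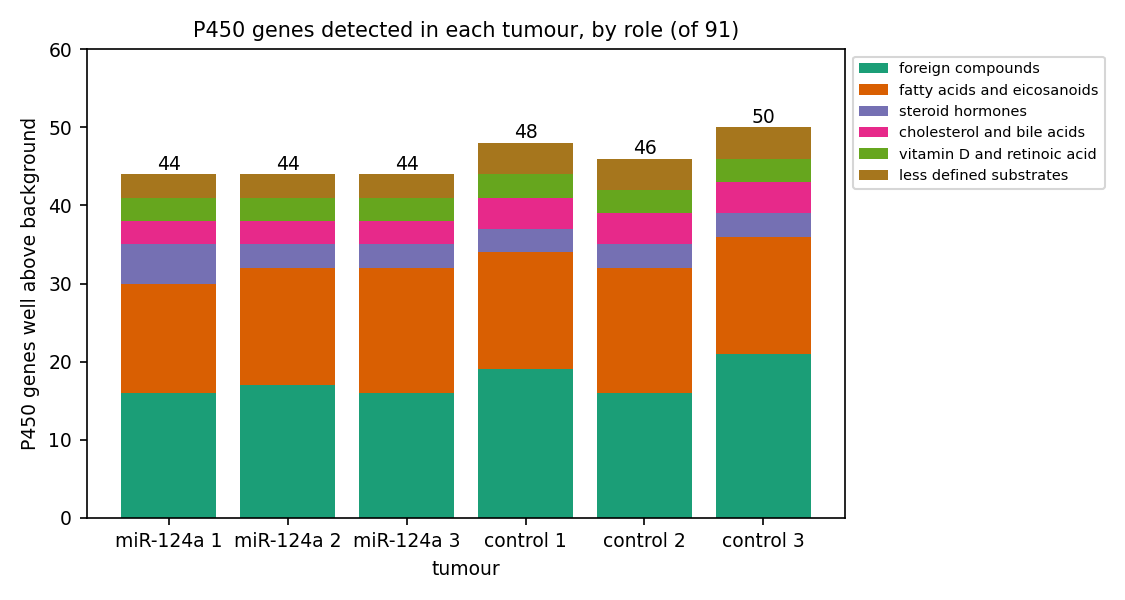
Bars count the P450 genes well above background in each tumour, out of 91, stacked by role. The 3 miR-124a tumours each had 44, and the control tumours had 48, 46 and 50.

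Enzymes of foreign compounds made up 46 of the 91 genes, of which 15 were tested. Of the 15, 1 fell and 0 rose past the threshold, and 12 values lay below 0 and 3 above, with a median of -0.36. Cyp2c65 had log2 relative signals of -7.41, -7.44 and -7.17 in miR-124a tumours and -4.03, -4.07 and -4.59 in control tumours. Its signal was well above background in 0 of 3 miR-124a and 3 of 3 control tumours, so all miR-124a values sit at the dim end of the scale, far below the lowest control value. The group means were -7.34 ± 0.15 in miR-124a and -4.23 ± 0.31 in control tumours (SD, n = 3 each). The log2 fold change was -3.11 ± 0.18 (SE; limma adjusted p = 0.0135), and because the miR-124a values were below background the fold is best read as a bound, at least 2.19-fold lower. This bound sets the control mean against the lowest signal well above background on each miR-124a array, or that tumour's own value if higher. It does not cover the spread between tumours. Probes below background can lie above that lowest signal, so the bounds given here are a guide and no strict limit. With normexp background correction and quantile scaling the log2 fold change was -0.34 (adjusted p = 0.0348). That fit adds an offset of 50 to the intensities, which shrinks the folds of dim signals, so its fold changes are on another scale. The call was lost when control tumour 2 (adjusted p = 0.0589), miR-124a tumour 1 (0.0824) or miR-124a tumour 2 (0.0602) was left out.

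Cyp2c66 and Cyp2c55 are the neighbours of Cyp2c65 on chromosome 19, and both are known in mouse from the intestine. Cyp2c66, chosen after its values were seen and not among the tested genes, had log2 relative signals of -7.35, -7.14 and -7.53 in miR-124a tumours and -4.95, -5.26 and -5.14 in control tumours. Of these, 0 of 3 miR-124a and 2 of 3 control values were above background, and the groups did not overlap. The bound was at least 1.18-fold lower in miR-124a tumours. With no filter on dim probes its log2 fold change was -2.22 ± 0.14 (SE; adjusted p = 0.0302), in a fit that called 0.259% of 37001 genes. Cyp2c55 was above background on all arrays by its tested probe. This probe had -4.24, -4.65 and -4.45 in miR-124a tumours and -4.01, -3.97 and -3.85 in control tumours. The groups did not overlap on it, yet its log2 fold change of -0.50 ± 0.13 did not pass the threshold (adjusted p = 0.0813). The other Cyp2c55 probe was above background on no array and differed by 0.044 (miR-124a minus control).

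**Figure D4:**
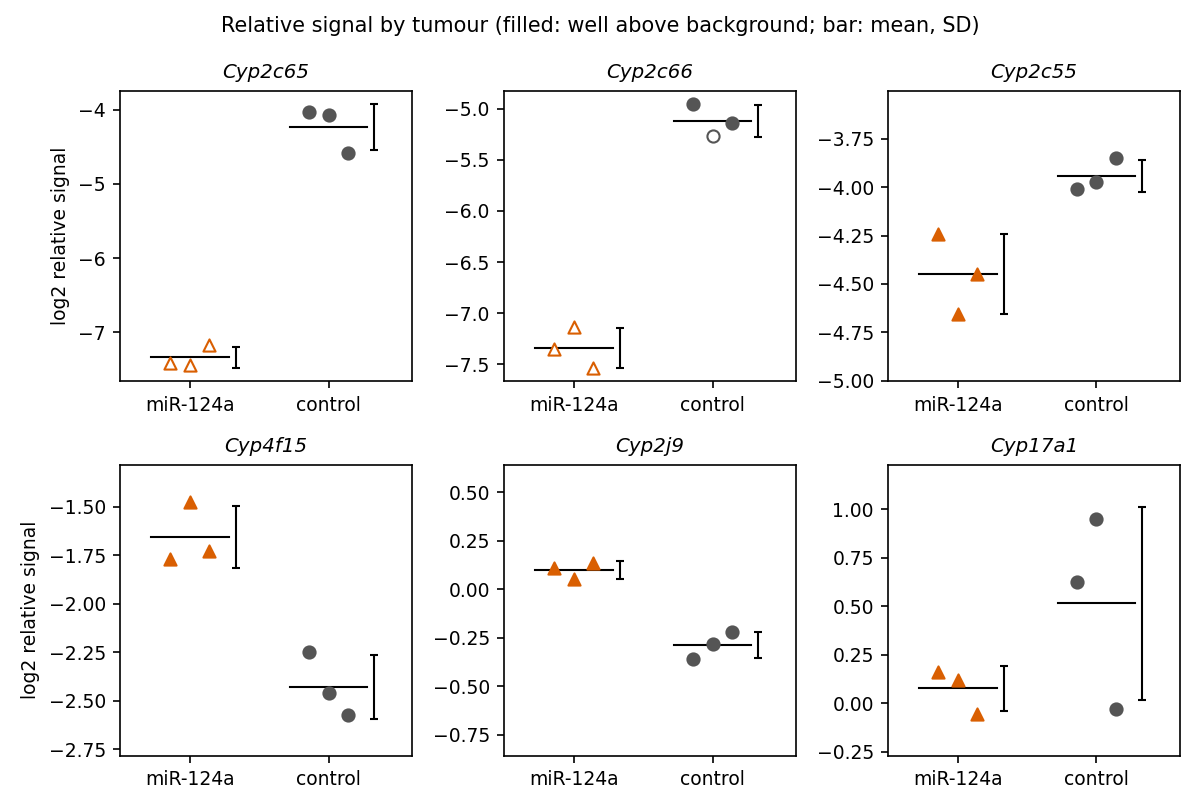
Each panel shows the log2 relative signal of 1 gene by tumour (triangles, miR-124a; circles, control; filled marks are well above background), with the mean as a line and the SD as a bar beside it (n = 3 each). Cyp2c65 and Cyp2c66 have open triangles near -7 in miR-124a tumours, Cyp4f15 and Cyp2j9 have triangles above all circles, and Cyp17a1 has a wide control group. The vertical axes differ between panels and do not start at 0.

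The other tested 2C genes had values in both directions. Of 15 Cyp2c genes on chromosome 19, 5 were tested, 3 with values below 0 (Cyp2c65 and Cyp2c55 among them) and 2 above. Cyp2c70, which in mouse makes muricholic bile acids, stood at -0.50 ± 0.14 on the log2 scale (adjusted p = 0.0908). Cyp2c67 went the other way at 1.02 ± 0.40 (adjusted p = 0.169), with 1 of 3 control tumours above background, and its probe differs from that of Cyp2c68 at 4 of 59 overlapping bases. Cyp2c38 stood at 0.093 ± 0.37, with 1 miR-124a tumour well above the other two. None of these 3 genes passed the threshold.

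Some markers of gut tissue fell in miR-124a tumours, as Cyp2c65 did. The marker lists were chosen with earlier results of these data known. Over all tested genes, 2.75% fell past the threshold. Of 15 enterocyte markers 8 were tested, and 4 fell past the threshold (Fabp1, Fabp2, Apoa4 and Lgals4), while Cdx2, Cdhr5, Alpi and Slc5a1 were above background on no array. All 8 tested values were below 0, and Fabp1 was above background in 1 of 3 miR-124a and 3 of 3 control tumours. Fabp1 was tested only through the control group, in which it was higher, so its call is partly built in. The summed signal of the 8, in units of the 75th percentile of each array, was 0.906 to 1.45 in miR-124a tumours and 2.39 to 2.89 in control tumours. Of 9 gastric surface markers 7 were tested and 4 fell, among them Gkn2 (-4.78 ± 0.32, adjusted p = 0.0135), with Muc6 above background on no array. Of the 7 values 6 were below 0, and Gkn1 went the other way without passing the threshold (0.42 ± 0.28, adjusted p = 0.359). The 7 summed to 4.40 to 4.97 in miR-124a tumours and 9.94 to 17.4 in control tumours. The part of these tissues in the fall of Cyp2c65 was not tested.

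On chromosome 7 the array covers 13 adjoining Cyp2 genes between 26587495 and 27943565 (mm9), of which 7 were tested. They include Cyp2f2, known in mouse as an enzyme of airway club cells, Cyp2a5 and its near copy Cyp2a4, which hydroxylate coumarin and testosterone, and the phenobarbital-inducible Cyp2b10. All 7 values were below 0, with a median log2 fold change of -0.26, and 0 passed the threshold. Probes of the 2A and 2B pairs are printed because the members of each pair are alike, all from the plus strand of chromosome 7. The Cyp2a4 probe also lists an accession of Cyp2a5, and the Cyp2b9 probe one of Cyp2b10, so their values may not be independent.
Cyp2a4, chr7:27099880-27099939: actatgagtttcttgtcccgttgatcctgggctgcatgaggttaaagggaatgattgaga
Cyp2a5, chr7:27628169-27628228: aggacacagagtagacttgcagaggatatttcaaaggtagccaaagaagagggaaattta
Cyp2b9, chr7:26995607-26995666: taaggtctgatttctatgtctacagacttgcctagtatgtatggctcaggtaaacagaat
Cyp2b10, chr7:26711522-26711581: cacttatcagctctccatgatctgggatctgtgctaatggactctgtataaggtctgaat

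In these 7 genes the values differed more between tumours of the same group than between the group means. Cyp2f2 had log2 relative signals of 3.87, 3.24 and 4.33 in miR-124a tumours and 3.50, 4.61 and 4.05 in control tumours, a log2 fold change of -0.24 ± 0.37 (adjusted p = 0.699). Cyp2a5 had 1.88, 1.49 and 2.39 in miR-124a tumours and 1.42, 2.90 and 2.21 in control tumours (-0.26 ± 0.41, adjusted p = 0.708). The groups overlapped for both genes, and the same tumours were high or low in each. Within the miR-124a group tumour 2 was lowest and tumour 3 highest in 7 of the 7 genes. Within the control group tumour 1 was lowest in 7 of 7 and tumour 2 highest in 6 of 7. Set against the control mean, the median of the 7 was -0.28, -0.74 and 0.093 in miR-124a tumours 1 to 3 and -0.72, 0.56 and 0.082 in control tumours 1 to 3.

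Marker lists of surface and airway epithelium varied between tumours as well. Of 10 airway secretory markers all were tested and 0 passed the threshold (1 at an unadjusted p under 0.05). Their summed signal was 10.5 to 41.3 in miR-124a tumours and 31.2 to 60.8 in control tumours, lowest in miR-124a tumour 2 and highest in control tumour 2, as in the Cyp2 neighbours, while by the median over the 10 markers miR-124a tumour 3 was highest. Of 10 keratinocyte markers 8 were tested and 0 passed, none of them at an unadjusted p under 0.05 either, with Ivl above background on no array. The 8 summed to 23.4 to 41.8 in miR-124a and 29.3 to 46.3 in control tumours, with the same tumours at the extremes. Of 6 markers of olfactory epithelium, a tissue where Cyp2a5 and Cyp2g1 are known to be strong, 5 were tested and 0 passed (1 at an unadjusted p under 0.05). The 5 summed to 7.38 to 9.42 in miR-124a and 4.76 to 6.57 in control tumours. The part of these tissues in the P450 values was not tested.

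**Figure D5:**
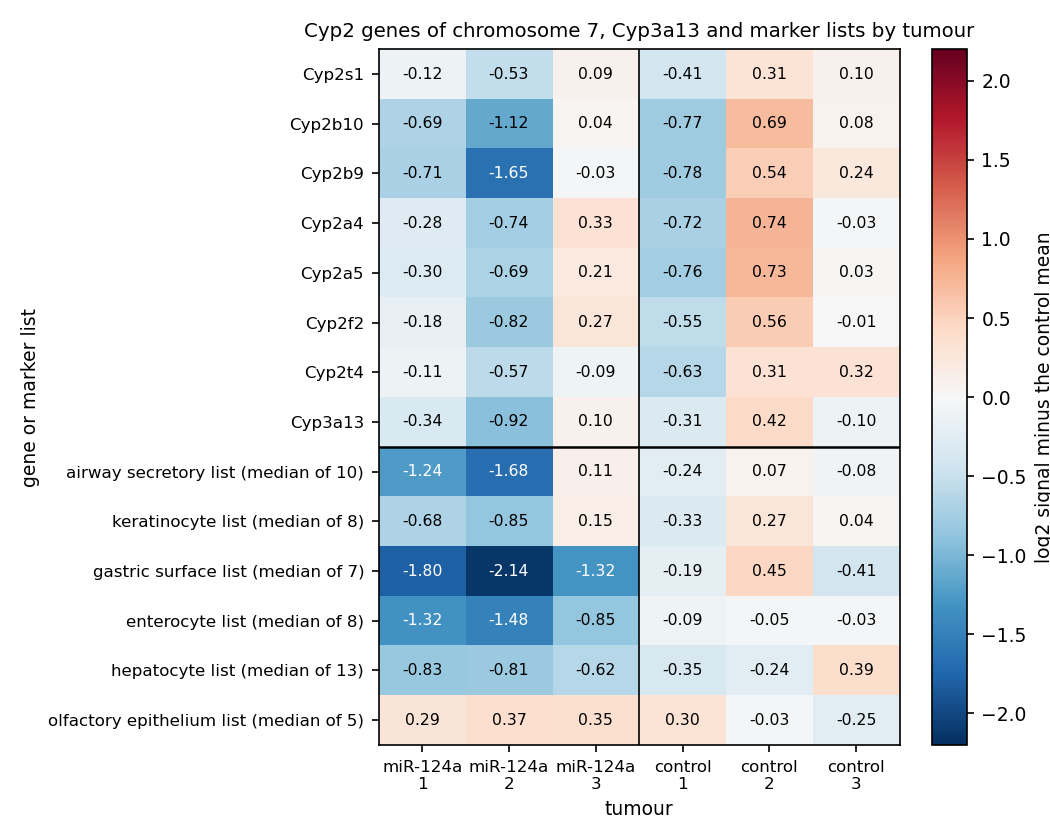
Each cell gives the log2 signal of a gene (rows above the line), or the median of a marker list (rows below it), in 1 tumour minus the mean of the control tumours, from blue (lower) to red (higher). The 7 chromosome 7 genes and Cyp3a13, added after its values were seen, share a lowest miR-124a tumour 2 and a highest miR-124a tumour 3.

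Other drug-metabolising members showed values without a call. Among the 91 genes, Cyp3a13 was the one tested member of the 3A subfamily, which in human holds the main drug-oxidising enzyme of the liver. Cyp3a13 had -4.14, -4.72 and -3.70 in miR-124a tumours and -4.11, -3.38 and -3.90 in control tumours (-0.39 ± 0.30, adjusted p = 0.437). Cyp1b1, which hydroxylates oestrogens and polycyclic compounds, had -1.30, -1.29 and -0.90 in miR-124a tumours and -1.10, -1.33 and -1.34 in control tumours (0.093 ± 0.14, adjusted p = 0.703). Both genes overlapped between the groups. The 3 tested Cyp2d genes of chromosome 15 all had values below 0, from -0.61 ± 0.22 for Cyp2d26 to -0.017 ± 0.19 for Cyp2d22, and 0 passed. The liver and induction markers of the family were near the detection limit: Cyp1a1, the classical target of the aryl hydrocarbon receptor, was above background in 0 of 3 miR-124a and 1 of 3 control tumours, and Cyp3a11, a drug-oxidising enzyme of mouse liver, in 2 of 3 miR-124a and 1 of 3 control tumours. The Cyp3a11 probe is also annotated to Cyp3a41a, Cyp3a41b and Cyp3a44, so signal on it may come from their transcripts. Cyp2e1, the ethanol-oxidising enzyme, was above background in 2 of 3 miR-124a and 2 of 3 control tumours. Only 1 of its probes gave these counts, and the other was above background on no array.

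Hepatocyte markers were present and did not pass the threshold. Of 14, all were above background on at least 1 array, 13 were tested, 0 passed and 10 had values below 0. At an unadjusted p under 0.05, 6 of the 13 passed, where 27.3% of all tested genes did. The 13 summed to 18.5 to 40.8 in miR-124a tumours and 24.1 to 25.1 in control tumours. The highest sum was that of miR-124a tumour 2 and was carried by Ttr, whose log2 relative signal there was 5.08. The median log2 fold change of the 13 was -0.95, and Alb, albumin, stood at -2.83 ± 0.74 (adjusted p = 0.0836) with its lowest value in miR-124a tumour 2.

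Enzymes of fatty acids and eicosanoids numbered 23, of which 14 were tested. Of these, 1 rose and 0 fell past the threshold, and 11 values lay above 0 and 3 below, with a median of 0.23. Cyp4f15 had log2 relative signals of -1.77, -1.48 and -1.73 in miR-124a tumours and -2.25, -2.46 and -2.57 in control tumours. All miR-124a values lay above all control values, and the means were -1.66 ± 0.16 in miR-124a and -2.43 ± 0.16 in control tumours (SD, n = 3 each). The log2 fold change was 0.77 ± 0.13 (SE; adjusted p = 0.0400), a 1.71-fold higher signal. The call was lost when any 1 of the 6 tumours was left out (adjusted p = 0.0699 to 0.133), and with normexp the log2 fold change was 0.41 (adjusted p = 0.0362).

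Cyp4f15 lies in a cluster of Cyp4f genes on chromosome 17, the enzymes that hydroxylate leukotrienes and long fatty acids at their end carbon. Of 8 genes there, 5 were tested and all 5 values were above 0, with a median of 0.29. Apart from Cyp4f15, the values were 0.34 ± 0.24 for Cyp4f14, 0.29 ± 0.16 for Cyp4f16, 0.16 ± 0.12 for Cyp4f13 and 0.099 ± 0.094 for Cyp4f17, none past the threshold. Cyp4f18, on chromosome 8 and known in neutrophils, stood at -0.27 ± 0.25, and a second probe that differs from the first at 3 of 59 overlapping bases gave -0.0021. Macrophage markers, for comparison, summed to 57.6 to 72.8 in miR-124a and 58.9 to 80.1 in control tumours, with 0 of 8 past the threshold or at an unadjusted p under 0.05.

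The 2J epoxygenases, which turn arachidonic acid into epoxides, were mixed, with 2 of 4 tested values above 0. Cyp2j9, known in mouse from brain, had 0.11, 0.051 and 0.14 in miR-124a tumours and -0.36, -0.28 and -0.22 in control tumours. The groups did not overlap and each was tight, but the log2 fold change of 0.39 ± 0.087 did not pass the threshold (adjusted p = 0.0673). It passed with normexp and quantile scaling (0.0316), in a fit that called 6.75% of all genes, and with a variance trend and robust estimation (0.0476), in one that called 7.51%. All these values are from the tested probe of Cyp2j9. Its other probe was above background on no array and differed by 0.069 (miR-124a minus control). Neuron markers had values above 0 in 9 of 9 tested genes, of which 0 passed. At an unadjusted p under 0.05, 7 of the 9 passed, where 27.3% of all tested genes did. The 9 markers summed to 184 to 229 in miR-124a and 134 to 159 in control tumours. Their part in the Cyp2j9 value was not tested.

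Cyp2u1, a long-chain fatty acid hydroxylase, depended on the probe. Its brightest probe holds 16 GT repeats, shown in capitals, and a second probe for the same gene holds none, both on the minus strand of chromosome 3.
Cyp2u1, chr3:130996343-130996402: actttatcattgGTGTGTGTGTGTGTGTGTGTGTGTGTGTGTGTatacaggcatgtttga
Cyp2u1, chr3:131000768-131000827: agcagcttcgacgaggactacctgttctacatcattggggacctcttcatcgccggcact
On the repeat probe the log2 relative signals were 5.37, 5.27 and 5.30 in miR-124a tumours and 5.28, 5.11 and 5.36 in control tumours (0.057 ± 0.10, adjusted p = 0.737). The second probe differed by 0.076 and the third by -0.39 between miR-124a and control, so the probes of this gene disagree in sign. Of 48 array probes with at least 10 GT in a row, 48 (100%) were well above background on all 6 arrays, where 59.4% of all probes were. The level on the repeat probe is therefore not given as a level of Cyp2u1 alone.

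Enzymes of steroid hormones numbered 6, of which 3 were tested and 0 passed, also at an unadjusted p under 0.05. Cyp17a1, which makes androgens and cortisol precursors, had 0.16, 0.12 and -0.053 in miR-124a tumours and 0.63, 0.95 and -0.030 in control tumours. The control tumours were spread widely and 1 of them lay among the miR-124a values (-0.44 ± 0.25, adjusted p = 0.297). Cyp11a1, which cleaves the side chain of cholesterol, had -1.70, -0.91 and -1.12 in miR-124a tumours and -1.07, -1.73 and -1.94 in control tumours (0.34 ± 0.29, adjusted p = 0.487). Cyp21a1, the 21-hydroxylase, stood at 0.15 ± 0.13 (adjusted p = 0.475). Its untested probe was above background on no array and differed by -0.24 (miR-124a minus control). Cyp19a1, the aromatase that makes oestrogens, was above background in 1 of 3 miR-124a and 0 of 3 control tumours. Of the steroidogenic markers Hsd3b1, Hsd3b6, Lhcgr and Mc2r were above background on no array, and 0 of the 3 tested passed (1 at an unadjusted p under 0.05). The 3 summed to 0.240 to 0.312 in miR-124a and 0.223 to 0.321 in control tumours.

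Enzymes of cholesterol and bile acids numbered 6, of which 4 were tested and 0 passed (1 at an unadjusted p under 0.05). Cyp27a1, the mitochondrial sterol 27-hydroxylase, had -5.50, -6.17 and -5.15 in miR-124a tumours and -4.34, -4.69 and -5.03 in control tumours. Its values did not overlap, but 0 of 3 miR-124a tumours were above background, which gives a bound of at least 1.48-fold lower, and the log2 fold change of -0.92 ± 0.30 did not pass (adjusted p = 0.119). Cyp7b1, the oxysterol 7-hydroxylase, had 0.51, 0.88 and 0.90 in miR-124a tumours and 0.63, 0.58 and 0.22 in control tumours (0.29 ± 0.16, adjusted p = 0.299), and its second tested probe gave 0.40. Cyp39a1, which acts on 24-hydroxycholesterol, stood at -0.13 ± 0.19 (adjusted p = 0.672). Cyp46a1, the neuronal enzyme that makes that sterol, had -3.34, -3.29 and -3.31 in miR-124a tumours and -3.04, -3.31 and -3.25 in control tumours (-0.11 ± 0.10, adjusted p = 0.494). Cyp7a1, which starts the classical bile acid pathway in hepatocytes, was above background on no array.

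Enzymes of vitamin D and retinoic acid numbered 6, of which 3 were tested and 0 passed, also at an unadjusted p under 0.05. Cyp26b1, which degrades retinoic acid in developing tissue, had 2.36, 2.84 and 2.74 in miR-124a tumours and 2.92, 2.21 and 2.28 in control tumours (0.17 ± 0.23, adjusted p = 0.652). Cyp26a1, its paralogue, had -3.38, -4.24 and -4.02 in miR-124a tumours and -3.87, -4.71 and -3.62 in control tumours (0.18 ± 0.34, adjusted p = 0.758). The groups overlapped for both. Cyp2r1, the vitamin D 25-hydroxylase, had -1.95, -1.81 and -1.90 in miR-124a tumours and -1.45, -1.56 and -1.83 in control tumours (-0.27 ± 0.12, adjusted p = 0.216), with 1 control value inside the miR-124a range. Cyp24a1, which inactivates vitamin D, was above background on no array.

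The 4 genes with less defined substrates were all tested and 0 passed (1 at an unadjusted p under 0.05). Cyp2w1, known from fetal gut and colon tumours in human, had -5.30, -5.55 and -5.75 in miR-124a tumours and -5.22, -4.36 and -4.95 in control tumours. None of the miR-124a values was above background, so the bound was at least 1.43-fold lower (log2 fold change -0.69 ± 0.24, adjusted p = 0.139). The untested Cyp2w1 probe was above background on no array and differed by 0.15 (miR-124a minus control). Cyp2s1, an enzyme of epithelia, had 0.44, 0.028 and 0.65 in miR-124a tumours and 0.16, 0.87 and 0.66 in control tumours (-0.19 ± 0.24, adjusted p = 0.637). The untested Cyp2s1 probe was above background on no array and differed by 0.21. Cyp20a1, an orphan enzyme, had 3 tested probes that disagreed, with differences of 0.17 on the brightest and -0.50 and -0.92 on the others, and none of them passed.

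The genes that serve P450 enzymes were measured from lists of their pathways, chosen with earlier results of these data known. Of 20 genes of electron supply and haem synthesis all were tested and 0 passed (9 at an unadjusted p under 0.05), with a median of -0.095. Over all tested genes 27.3% had an unadjusted p under 0.05, and 2.75% fell past the threshold. The smallest p was that of Cyb5r1, a cytochrome b5 reductase, at -1.01 ± 0.23 (adjusted p = 0.0690). Of 20 receptors and partners that control the drug-metabolising members 18 were tested and 1 fell. This was Hnf4a, a transcription factor of liver and gut epithelium, with -4.10, -4.55 and -3.71 in miR-124a tumours and -3.01, -2.76 and -2.41 in control tumours (-1.40 ± 0.25, adjusted p = 0.0453). Nr1i2, the pregnane X receptor, and Nr0b2 were above background on no array. No gene of the array passed in fits without control tumour 2 or without miR-124a tumour 2, so every call of a pathway or marker gene is lost there, and 1 and 13 genes passed without miR-124a tumour 1 and without control tumour 1.

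The conjugating enzymes that act after P450 had 3 of 19 tested genes lower and 0 higher, where 2.75% and 0.488% of all tested genes were. Sult1c2, a sulfotransferase, had -3.49, -3.30 and -2.91 in miR-124a tumours and -1.30, -1.06 and -1.38 in control tumours (-1.99 ± 0.18, adjusted p = 0.0182). Sult1b1, another sulfotransferase, was above background in 0 of 3 miR-124a and 3 of 3 control tumours, at least 1.93-fold lower (adjusted p = 0.0410). It was tested only because of the control group, in which it was higher, so its call is partly built in. Ugt2b34, a glucuronosyltransferase, stood at -1.53 ± 0.28 (adjusted p = 0.0469), with 2 of 3 miR-124a and 3 of 3 control tumours above background. Ugt2b34 too was tested only through the control group, in which it was higher, so its call is partly built in. The median of the list was -0.11.

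Among genes that share substrates with P450 enzymes, 1 of 18 tested eicosanoid genes fell and 0 rose. It was Ptgis, the prostacyclin synthase and itself a P450-fold protein, with 0.10, 0.20 and 0.10 in miR-124a tumours and 0.81, 1.25 and 1.11 in control tumours (-0.92 ± 0.13, adjusted p = 0.0296). None of 16 other steroid hormone genes, 20 other cholesterol and bile acid genes and 18 other retinoic acid and vitamin D genes passed, with medians of -0.12, 0.054 and -0.062, while 2, 3 and 1 had an unadjusted p under 0.05. Their smallest p-values were those of Star, the cholesterol carrier of steroidogenesis (0.32 ± 0.12, adjusted p = 0.151), Amacr, a racemase of bile acid synthesis (-0.51 ± 0.12, adjusted p = 0.0740), and Rara, a retinoic acid receptor (-0.31 ± 0.12, adjusted p = 0.156). Skeletal muscle markers, from a tissue that is no main site of these enzymes, fell in 10 of 10, where 2.75% of all tested genes fell. The 10 markers summed to 175 to 247 in miR-124a and 440 to 698 in control tumours.

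RefSeq promoter sequences (GRCm38.p6) were at hand for 70 of the 91 genes. In the 250 bases before the start, the letters TATAAA on either strand stood in 33.8% of 80 P450 promoter entries and in 12.4% of all 32851 entries, and AGGTCA, a site of nuclear receptors, in 23.8% of the P450 and 14.0% of all entries. These windows are shown for the gene that fell and the gene that rose, both on the plus strand, with TATAAA in capitals.
Cyp2c65, chr19:39060756-39061005: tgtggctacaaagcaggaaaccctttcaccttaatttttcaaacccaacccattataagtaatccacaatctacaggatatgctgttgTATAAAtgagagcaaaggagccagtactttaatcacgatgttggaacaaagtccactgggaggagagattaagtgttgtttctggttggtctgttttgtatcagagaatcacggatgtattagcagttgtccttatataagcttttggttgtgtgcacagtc
Cyp4f15, chr17:32685409-32685658: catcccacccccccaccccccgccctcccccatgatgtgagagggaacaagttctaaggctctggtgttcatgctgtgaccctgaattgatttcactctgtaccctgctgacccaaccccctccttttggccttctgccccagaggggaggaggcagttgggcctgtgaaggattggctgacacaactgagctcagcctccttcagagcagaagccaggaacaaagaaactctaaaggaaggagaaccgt
The Cyp2c65 window held TATAAA once, 162 bases before the start, and the Cyp4f15 window held neither set of letters. A match is a description of letters, and binding was not measured.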

How the data were processed

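Expression was measured on 6 1-colour Agilent arrays, 1 per tumour, 3 per group. Samples were grouped by their labels, and each array stands for a separately numbered teratoma. The sample titles number the tumours and do not name the mouse. The deposited scanner files give a processed spot intensity, corrected for background by Agilent Feature Extraction 11.5.1.1, per the file headers, and left unscaled. A second deposited table gives log2 values of this intensity, moved by a constant in each array. It is not centred per probe (SD of the difference 0.0029, medians -3.07 to -2.97), and its program is not named in the labels used here.

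Control spots (of 62976, 59305 were not) and outlier spots were left out, spots of a probe were averaged, and 22 probes, 0 of them of a P450 gene, had no spot left. Values are log2 intensity minus the 75th percentile of the array. Probes above background on every array of 1 group or both (35719) were tested, and a gene took its brightest tested probe. Names came from RefSeq accessions (32979 probes), symbols (10223), older symbols (520) or the file (12861), and P450 probes kept the name in the file. The comparison of the groups used R 4.3.3 and limma 3.58.1 (lmFit, eBayes; no covariates), p-values were adjusted by Benjamini-Hochberg over 22946 genes, and the code was tested on simulated data. Figures were drawn with matplotlib 3.10.9. The number of arrays limits the precision.

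Genes given by tumour were those past the threshold, the brightest and the smallest p in each role, and a set of well-known members. In the pathway lists, called genes or else the gene with the smallest p were named. The members, roles and lists were chosen with earlier results of these data known. The alternatives covered scaling, normexp (offset 50), the filter on dim probes, the choice of probe, array weights, a variance trend, a replicate block and leaving out each tumour. Samples with the same number did not deviate together, so the numbers were not taken as pairs.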

Additional observations from a re-analysis of the deposited data

How the results depend on the processing

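The number of P450 genes called higher, 1 in the report, was 2 with normexp and with a variance trend and robust estimation, 0 with no filter on dim probes, 0 with a replicate block, and 0 without each tumour in turn. The number called lower, 1 in the report, was 2 with no filter, 0 where only probes above background on all 6 arrays were kept (which leaves out Cyp2c65), 0 with a replicate block, and 0 to 1 without each tumour. Over all genes 742 calls became 1549 with normexp, 1723 with a variance trend, 96 with no filter, 0 with a replicate block, and 0 to 375 without each tumour. The correlation of the deviations of same-numbered tumours was -0.16, -0.039 and -0.065, so the block tests no pairing. Leaving out tumours and adding the block reduce the degrees of freedom. The cause of the other shifts was not tested. The median of the tested P450 genes was -0.12 to 0.046 without each tumour.

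Over 22 tested named genes and 16 alternatives, 323 of 349 values kept direction and side of the threshold, 12 lost the call, 2 gained it and 12 reversed. All 12 losses were in Cyp2c65 and Cyp4f15, the only named genes with a call to lose. The 349 values are therefore no measure of how stable these calls were. The reversals were Cyp20a1 (-0.41) and Cyp2u1 (-0.087) where probes of a gene were averaged, Cyp2a5 (0.0046) and Cyp2f2 (0.00085) with array weights, and, without 1 tumour, Cyp1b1 (-0.036 to 0.17), Cyp26a1 (-0.14 to 0.41), Cyp2a5 (-0.64 to 0.10), Cyp2f2 (-0.52 to 0.046), Cyp2u1 (-0.012 to 0.11) and Cyp39a1 (-0.28 to 0.041). None of these had passed the threshold. With a replicate block the adjusted p was 0.108 for Cyp2c65 and 0.144 for Cyp4f15, and with no filter 0.0883 for Cyp4f15. Signal near background limits Cyp2c65, Cyp2c66, Cyp27a1, Cyp2w1 and Cyp2c67.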
